A study of Mus musculus with 6 samples.

Results

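Chemokines, interleukins and their receptors were examined in immortalized neural precursor-like cells with and without Lgi1, a secreted protein of neuronal synapses. The group was defined by gene symbol: genes named Ccl, Cxcl, Cx3cl1, Ccr, Cxcr, Cx3cr1 or Il with a number, each with a single annotated symbol on the array. It held 125 of the 19938 genes measured, namely 33 chemokine ligands, 16 chemokine receptors, 36 interleukin ligands, 35 interleukin receptor chains, 4 antagonists or binding proteins and 1 antisense RNA (Il1bos). The knock-out group was 3 arrays of cells with a homozygous deletion of Lgi1, and the wild-type group 3 arrays of cells with intact Lgi1. The cells of both genotypes derived from the brain of C57BL/6J embryos at day 13.5, were immortalized, and grew untreated in RPMI with 1% serum. Each RNA sample was hybridized to its own Affymetrix Mouse Gene 1.0 ST array, and the deposited log2 signal was used. The labels call the arrays biological replicates but name neither the immortalizing agent nor the number of embryos or lines behind a genotype, so each p-value rests on the variation among these samples, and that variation may be technical.

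Chemokines are small secreted proteins that guide migrating cells along a gradient, and they are sorted into CC, CXC and CX3C classes by the spacing of their first cysteines. They act on receptors that couple to G proteins. Interleukins signal through paired receptor chains. Most of these chains work through JAK kinases and STAT factors, while those of the IL-1 family work through MyD88 and NF-κB. In brain, these proteins are best known from microglia, astrocytes and the meninges, where CXCL12 and its receptor CXCR4 also steer migrating precursors during development.

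The arrays were alike in scale, with medians of 6.36 to 6.41 over all probe sets. Lgi1 itself lay near background on all arrays (4.55 ± 0.021 in knock-out and 4.77 ± 0.17 in wild-type cells, SD, n = 3 each), so it did not check the labels. Xist averaged 12.44 in knock-out and 4.64 in wild-type cells, and the Y-linked Eif2s3y 4.67 in knock-out and 10.19 in wild-type cells, so the sex of the embryos and the genotype cannot be told apart. Neural progenitor markers gave 6 falls and 1 rise among 13, and the defining factor Sox2 lay at 5.35 ± 0.17 in knock-out and at 11.26 ± 0.11 in wild-type cells. The label of neural precursors was thus met by Sox2 only in the wild-type cells, although Nes was measured well above background in both (8.72 in knock-out and 10.73 in wild-type cells).

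The level of genes that are not in use was taken from 1027 olfactory receptor genes, whose means over the 6 arrays centred on a median of 4.89. Their 95th percentile, 5.67, is called background here. Of the 125 chemokine and interleukin genes, 44 had a mean above background in at least 1 genotype (35.2%, against 58.5% of all genes), 34 of them in both genotypes, 6 only in knock-out and 4 only in wild-type cells. The other 81 stayed below it in both, including Il1a, Il1b, Il6 and Il10 and 13 of the 16 chemokine receptors.

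Between the genotypes 32 of the 125 genes changed (25.6%) at a limma adjusted p under 0.05, against 31.6% of all genes tested. The share was therefore not above that of the transcriptome. Knock-out cells were higher for 13 genes and lower for 19, where 14.0% and 17.6% of all genes were called in these directions. Changes of at least 2-fold were found for 17 genes (13.6%, against 5.32% of all genes), 8 of them higher and 9 lower (3.05% and 2.27% of all genes). Among the 44 genes above background 28 changed, 12 higher and 16 lower, where 49.7% of all genes above background by the same rule were called. Because a gene high in only 1 genotype enters this set through that genotype, the last count is a description. The knock-out arrays lay apart from the wild-type arrays on 41 of the 125 genes (32.8%), the 32 called ones among them, against 42.3% of all genes. The median log2 fold change of the 125 genes was −0.0027, and that of all genes was −0.012.

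**Figure D1:**
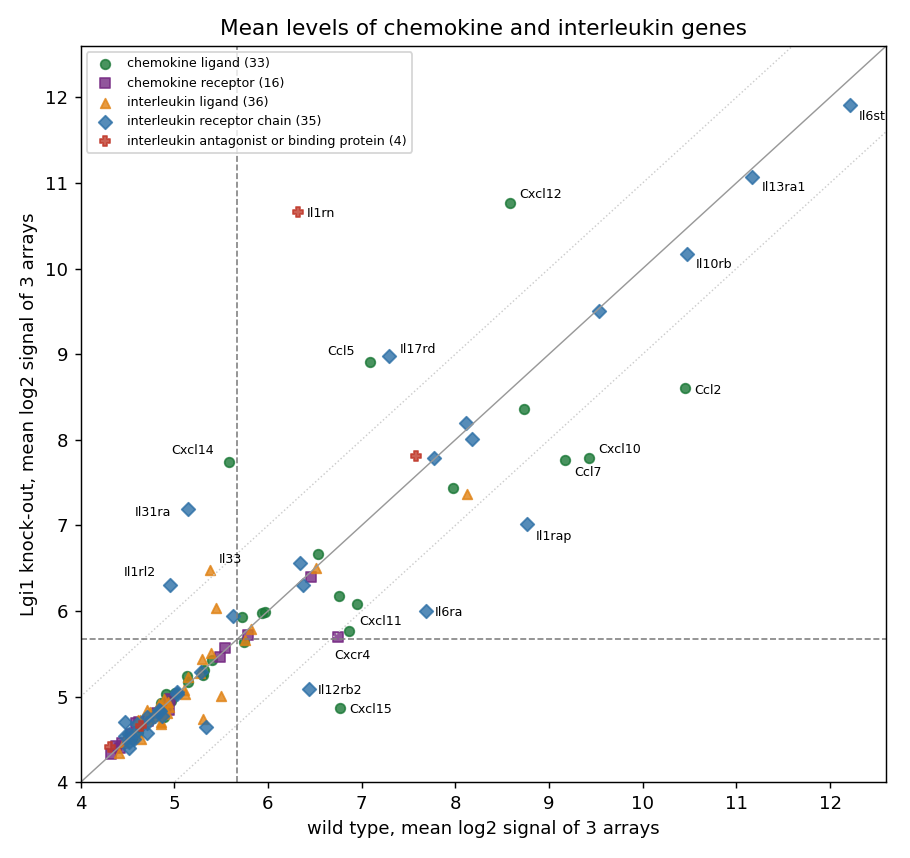
Mean log2 signal of 3 knock-out arrays (vertical axis) against 3 wild-type arrays (horizontal axis) for 124 genes by class (Il1bos is not drawn). Dashed lines mark background at 5.67, the solid line equal levels and dotted lines a 2-fold difference; most genes crowd below background, and Il1rn stands farthest above the line of equal levels.

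Chemokine ligands moved in both directions. Ccl2 and Ccl7, which draw monocytes, and Cxcl10 and Cxcl11, ligands of CXCR3, fell in knock-out cells, while the stromal chemokines Cxcl12 and Cxcl14 and the T cell attractant Ccl5 rose. Of 33 ligands 3 rose and 9 fell (36.4%, near the 31.6% of all genes), and 17 had a mean above background in at least 1 genotype. No ligand below background in both genotypes was called.

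Cxcl12 (probe set 10541075, chromosome 6) encodes the ligand of CXCR4 that meninges and other stroma release. Its log2 signal was 10.71, 10.78 and 10.80 on the knock-out arrays, against 8.20, 8.94 and 8.62 on the wild-type arrays. All knock-out arrays lay above all wild-type arrays, and the wild-type arrays were the more spread, with replicate 1 the lowest. The log2 fold change was +2.18 (SE 0.15, limma adjusted p = 1.67e-06), or 4.53-fold. Cxcl14 (probe set 10409579, chromosome 13), a chemokine of epithelia and fibroblasts, had 7.91, 7.76 and 7.56 in knock-out cells, against 6.01, 5.47 and 5.27 in wild-type cells. Its groups did not overlap, and only wild-type replicate 1 exceeded background among the wild-type arrays. It rose by 2.16 (SE 0.17, adjusted p = 3.95e-06), with a wild-type mean under background that limits the fold. Ccl5 (probe set 10389207, chromosome 11), an attractant of T cells, had 9.08, 8.89 and 8.76 in knock-out cells, against 7.12, 6.98 and 7.19 in wild-type cells. The genotypes were well apart on every array. Ccl5 rose by 1.82 (SE 0.091, adjusted p = 1.39e-07), or 3.52-fold.

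Ccl2 (probe set 10379511, chromosome 11), the main attractant of monocytes, had 8.71, 8.95 and 8.15 in knock-out cells, against 10.41, 10.61 and 10.33 in wild-type cells. Every knock-out array was lower, and knock-out replicate 3 was the lowest. Ccl2 fell by 1.85 on the log2 scale (SE 0.17, adjusted p = 1.55e-05). Ccl7 (probe set 10379518), a further CCR2 ligand beside Ccl2 on chromosome 11, had 7.80, 7.84 and 7.67 in knock-out cells, against 9.12, 9.18 and 9.20 in wild-type cells. Its arrays were tightly grouped within each genotype. It fell by 1.40 (SE 0.067, adjusted p = 8.82e-08).

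Cxcl10 (probe set 10531415, chromosome 5), an interferon-induced ligand of CXCR3, had 8.26, 7.27 and 7.82 in knock-out cells, against 9.60, 9.22 and 9.47 in wild-type cells. The knock-out arrays were spread over about 1 log2 unit, with replicate 2 the lowest, and none reached the wild-type range. Cxcl10 fell by 1.65 (SE 0.20, adjusted p = 0.000135). Its neighbour Cxcl11 (probe set 10531420), which the C57BL/6J reference annotates as a transcribed pseudogene, had 5.81, 5.67 and 5.84 in knock-out cells, against 6.96, 6.83 and 6.81 in wild-type cells. It fell by 1.09 (SE 0.072, adjusted p = 1.12e-06) to a level at background. Cxcl9, the other CXCR3 ligand, was below background in both genotypes (5.25 in knock-out and 5.14 in wild-type cells).

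Promoter windows from RefSeq (GRCm38.p6) are shown for a chemokine that fell and one that rose. Each runs 5′ to 3′ from 250 bases before to 50 bases after an annotated transcript start. Capitals mark matches on either strand to the NF-κB consensus of 10 bases, to the interferon-stimulated response element (ISRE, searched as GAAA, any 2 bases and GAAA) or to the AP-1 site (searched as TGANTCA). The Cxcl10 window is chr5:92348840-92349139 on the minus strand and the Cxcl12 window chr6:117168285-117168584 on the plus strand.
Cxcl10: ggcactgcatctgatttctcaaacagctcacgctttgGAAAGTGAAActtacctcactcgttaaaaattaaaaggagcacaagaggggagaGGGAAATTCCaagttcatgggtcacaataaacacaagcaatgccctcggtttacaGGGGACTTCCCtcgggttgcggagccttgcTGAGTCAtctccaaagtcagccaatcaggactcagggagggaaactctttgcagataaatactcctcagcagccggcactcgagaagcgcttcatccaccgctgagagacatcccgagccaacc
Cxcl12: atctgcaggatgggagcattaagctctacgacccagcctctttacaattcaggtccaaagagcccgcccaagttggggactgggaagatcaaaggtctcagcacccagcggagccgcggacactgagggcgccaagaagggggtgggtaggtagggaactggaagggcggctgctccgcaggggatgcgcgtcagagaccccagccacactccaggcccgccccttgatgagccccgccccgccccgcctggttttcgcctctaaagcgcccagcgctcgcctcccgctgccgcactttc
In Cxcl10 the ISRE match began 213 bases before the start, NF-κB matches began 159, 104 and 103 bases before it, the last pair overlapping, and an AP-1 match began 74 bases before it. The Cxcl12 window held no match to these letters. Among the chemokine and interleukin genes with a window, only Cxcl10 had all 3 motifs, so the pair shown is an extreme contrast. Over all 32851 windows of the same length, the NF-κB consensus was found in 8.46%, the ISRE in 3.44% and the AP-1 site in 7.81%. Counted by gene, with a match in any window, the shares over all genes were 9.55%, 3.99% and 8.97% in that order. Windows were at hand for 94 of the 125 genes, 13 of them genes that fell and 11 that rose. None was at hand for Ccl2, Ccl7 or Ccl5. The NF-κB consensus was present for 17 of the 94, including 3 that fell (Cxcl10, Ccl9 and Il12rb2) and 0 that rose. Most genes with it did not pass, Cxcl1, Cxcl2, Cxcl3 and Il6 among them. The ISRE was present for 6, including 2 that fell and 1 that rose, and the AP-1 site for 20, including 2 that fell and 3 that rose. These matches describe the letters only.

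The remaining falls among ligands were smaller or rested on dim signal. Cxcl15 (probe set 10523145, chromosome 5), a neutrophil attractant known from mouse lung, had 4.76, 4.97 and 4.88 in knock-out cells, against 6.32, 6.43 and 7.56 in wild-type cells. Wild-type replicate 3 stood above its group, and all knock-out arrays were under background. Cxcl15 fell by 1.90 (SE 0.26, adjusted p = 0.000306). Ccl17 (chromosome 8), a ligand of CCR4, had 6.10, 6.07 and 6.09 in knock-out cells, against 7.04, 6.97 and 6.85 in wild-type cells, and fell by 0.87 (SE 0.066, adjusted p = 3.85e-06). Ccl9 (chromosome 11), a CCR1 ligand of mice, had 6.20, 6.33 and 6.01 in knock-out cells, against 6.79, 6.85 and 6.64 in wild-type cells. It fell by 0.58 (SE 0.091, adjusted p = 0.000734), and neither Ccl17 nor Ccl9 overlapped between genotypes.

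Ccl25 (probe set 10569958, chromosome 8), a ligand of CCR9, had 7.37, 7.46 and 7.47 in knock-out cells, against 8.03, 8.04 and 7.85 in wild-type cells. It fell by 0.54 (SE 0.070, adjusted p = 0.000197), and its second, dimmer probe set 10569962 was lower by 1.10, so the probe sets shared a direction and not a size. Cx3cl1 (chromosome 8), the membrane-bound fractalkine of neurons, had 8.38, 8.50 and 8.19 in knock-out cells, against 8.75, 8.65 and 8.80 in wild-type cells. It fell by 0.37 (SE 0.086, adjusted p = 0.00693). Without moderation of the variances its adjusted p was 0.0787.

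Ligands that did not pass included Cxcl16, a membrane-bound ligand of CXCR6. It had 6.55, 6.68 and 6.78 in knock-out cells, against 6.47, 6.52 and 6.62 in wild-type cells, and these ranges overlapped (log2 fold change +0.13, SE 0.076, adjusted p = 0.246). The neutrophil attractant Cxcl1 averaged 5.93 ± 0.23 in knock-out and 5.72 ± 0.072 in wild-type cells (SD, n = 3 each, +0.20, SE 0.10, adjusted p = 0.191). Eotaxin Ccl11 (−0.11) and the homeostatic chemokines Cxcl13 (+0.02) and Ccl19 (+0.04) lay near background in both genotypes, with adjusted p-values of 0.272, 0.915 and 0.813. The sign of the Cxcl13 and Ccl19 differences turned when the arrays were rescaled. Ccl19 also had 5 probe sets with almost the same values, so its signal cannot be assigned to 1 locus.

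**Figure D2:**
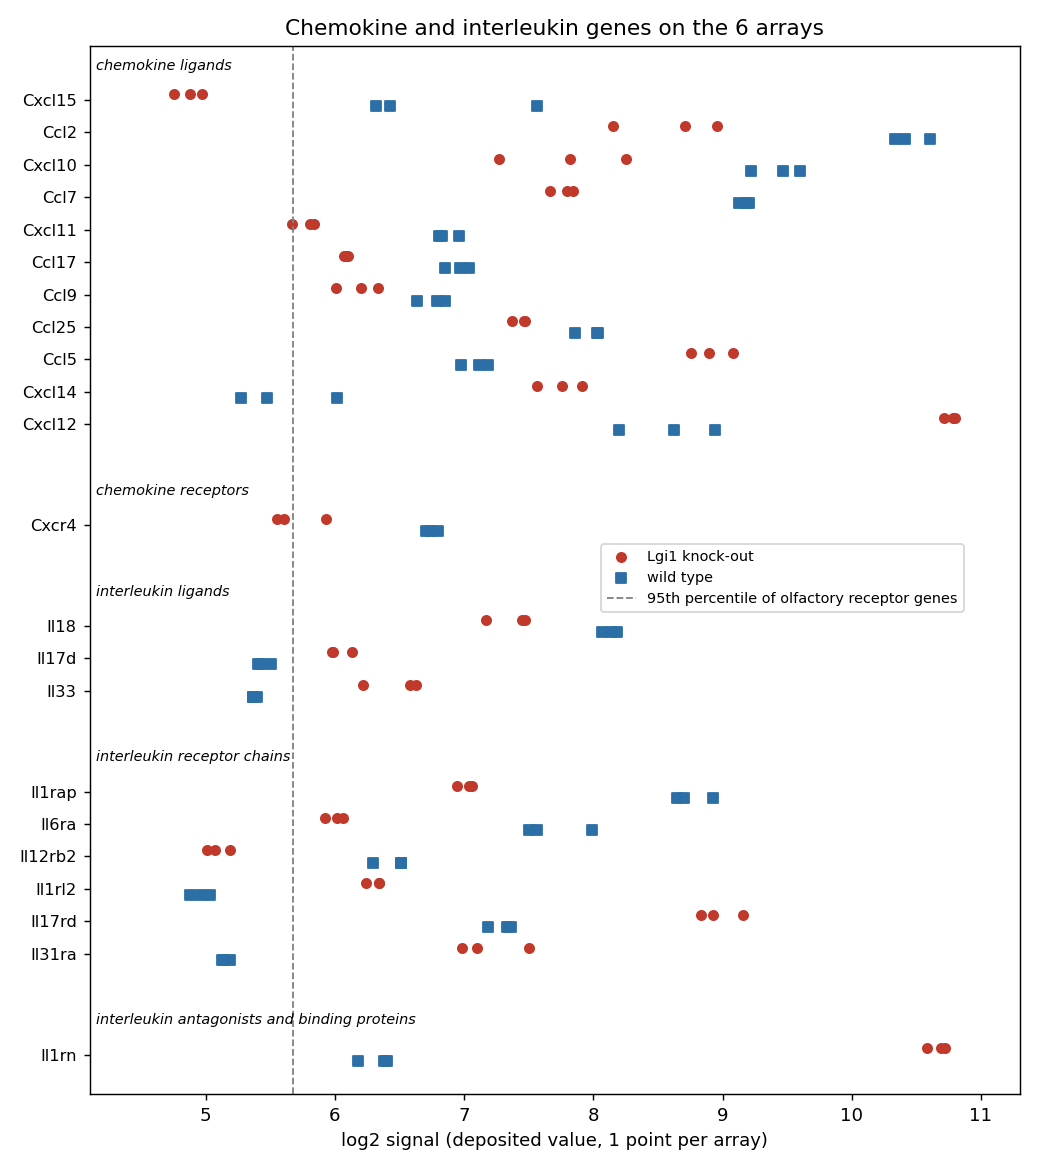
Log2 signal of each array for the 22 genes above background that changed by at least 0.5 on the log2 scale, by class; circles are the 3 knock-out arrays, squares the 3 wild-type arrays, and the dashed line is background at 5.67. Within each gene the circles and squares do not overlap, and Il1rn shows the widest gap.

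Chemokine genes lie in clusters, which the definition of the group did not use. In the order of the GRCm38.p6 gene table, Ccl2, Ccl7, Ccl11, Ccl12, Ccl8 and Ccl1 follow each other on chromosome 11. Only the first pair fell and stood above background in both genotypes, and Ccl12, Ccl8 and Ccl1 were below background in both and did not pass. In the next cluster on that chromosome Ccl5 rose and its neighbour Ccl9 fell, while Ccl6, Ccl3 and Ccl4 were below background in both genotypes. On chromosome 5 the cluster of Cxcl5, Cxcl3, Cxcl15, Cxcl1 and Cxcl2 held 1 changed gene, Cxcl15. The cluster of Cxcl9, Cxcl10 and Cxcl11 held a pair of neighbours that fell. Whether neighbours moved together more than other genes was not tested.

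**Figure D3:**
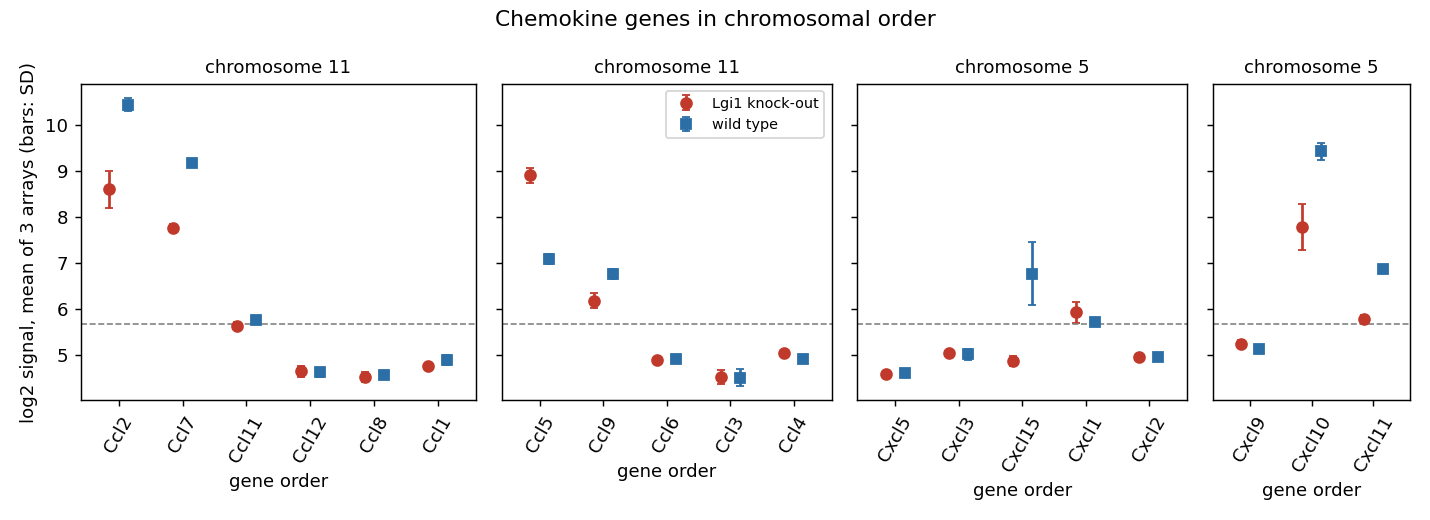
Mean log2 signal (SD bars, n = 3 arrays) of knock-out (circles) and wild-type cells (squares) for chemokine genes in their order along chromosomes 11 and 5, with background at 5.67 as the dashed line. Ccl2 with Ccl7 and Cxcl10 with Cxcl11 are lower in knock-out cells as neighbours, whereas Ccl5 is higher next to Ccl9, which is lower.

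Of the 16 chemokine receptors 1 was called (6.25%, against 31.6% of all genes). Cxcr4 (probe set 10357472, chromosome 1), the receptor of Cxcl12, had 5.55, 5.93 and 5.61 in knock-out cells, against 6.70, 6.80 and 6.75 in wild-type cells. All knock-out arrays were lower, around background. Cxcr4 fell by 1.06 (SE 0.095, adjusted p = 1.33e-05), while its ligand rose. Ackr3, a scavenging receptor of CXCL12 that the symbol rule does not include, averaged 6.77 ± 0.45 in knock-out and 5.45 ± 0.16 in wild-type cells and rose by 1.32 (SE 0.19, adjusted p = 0.000331). Thus Cxcl12 and Ackr3 were higher and Cxcr4 lower in the same cells.

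Ccr7 and Ccr10, receptors of lymphoid and of epithelial homing, were the only other chemokine receptors above background, and neither passed (−0.07 and −0.06, adjusted p = 0.499 and 0.819). Their arrays overlapped between genotypes. Receptors of several changed ligands were below background in both genotypes, with Ccr2 at 4.71 in knock-out and 4.62 in wild-type cells. Cxcr3 was at 5.57 in knock-out and 5.54 in wild-type cells, and Cx3cr1 at 5.47 in knock-out and 5.49 in wild-type cells. Among 12 measured genes of the wider chemokine system 3 rose and none fell (median +0.10). Beside Ackr3 these were the chemerin receptor Cmklr1 (+0.70, SE 0.11, adjusted p = 0.000785) and the platelet chemokine Ppbp, which was below background (+0.29, SE 0.091, adjusted p = 0.0322). Ppbp was not called without knock-out replicate 1 or 2 or wild-type replicate 2 or 3 (adjusted p = 0.110, 0.0662, 0.108 and 0.0831).

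Interleukin ligands were mostly below background. Of 36, 30 stayed below it in both genotypes, and 2 rose and 3 fell (13.9%, against 31.6% of all genes). Il33 (probe set 10462442, chromosome 19), a nuclear alarmin of stromal cells, had 6.22, 6.63 and 6.58 in knock-out cells, against 5.37, 5.37 and 5.39 in wild-type cells. The wild-type arrays were all under background. Il33 rose by 1.10 (SE 0.10, adjusted p = 1.44e-05). Il17d (chromosome 14), an IL-17 family member found in many tissues, had 5.98, 6.13 and 5.98 in knock-out cells, against 5.43, 5.50 and 5.40 in wild-type cells. It rose by 0.59 (SE 0.067, adjusted p = 7.65e-05), again with every wild-type array under background.

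Il18 (probe set 10585194, chromosome 9), an IL-1 family cytokine that caspase-1 activates, had 7.47, 7.45 and 7.17 in knock-out cells, against 8.19, 8.07 and 8.14 in wild-type cells. It fell by 0.77 (SE 0.086, adjusted p = 6.65e-05), and its groups did not overlap. Il27 (−0.01), Il17b (−0.03) and Il31 (−0.09) did not pass (adjusted p = 0.954, 0.781 and 0.468). Il27 averaged 6.51 in each genotype, and Il17b and Il31 were near background. Of the 81 genes below background in both genotypes 4 were called, all dim, and they are named here after their values were seen. Il15 (−0.57), a growth factor of natural killer cells, Il34 (−0.49), a ligand of the CSF1 receptor, and Il1rapl1 (−0.69), a synaptic adhesion protein, fell, and the receptor chain Il20ra rose (+0.22, SE 0.061, adjusted p = 0.0186). Il20ra was not called without knock-out replicate 1 (adjusted p = 0.0741) or wild-type replicate 1 (0.0549). The log2 fold changes of the 81 ranged from −0.69 to +0.22 with a median of 0.0071.

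Receptor chains for interleukins were changed in both directions, 6 higher and 6 lower of 35 (34.3%, against 31.6% of all genes). This share was near that of all genes, and 2 of the 12 called chains, Il1rapl1 and Il20ra, were below background in both genotypes. The largest falls were those of Il1rap and Il6ra, and the largest rises those of Il31ra and Il17rd. Il1rap (probe set 10434845, chromosome 16), the shared accessory chain of the IL-1, IL-33 and IL-36 receptors, had 7.04, 7.06 and 6.94 in knock-out cells, against 8.70, 8.65 and 8.93 in wild-type cells. Within each genotype the arrays were close, and the genotypes lay far apart. Il1rap fell by 1.75 (SE 0.082, adjusted p = 7.67e-08), or 3.35-fold. Il6ra (probe set 10499655, chromosome 3), the chain that binds IL-6, had 5.92, 6.06 and 6.01 in knock-out cells, against 7.56, 7.99 and 7.50 in wild-type cells. All knock-out arrays were near background. It fell by 1.68 (SE 0.12, adjusted p = 1.67e-06). Il12rb2 (probe set 10545135, chromosome 6), the signalling chain of the IL-12 receptor, had 5.07, 5.19 and 5.01 in knock-out cells, against 6.30, 6.51 and 6.51 in wild-type cells. It fell by 1.35 (SE 0.079, adjusted p = 4.55e-07) to under background.

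Il31ra (probe set 10412126, chromosome 13), which pairs with OSMR to bind IL-31, had 6.98, 7.50 and 7.10 in knock-out cells, against 5.14, 5.12 and 5.19 in wild-type cells. The wild-type arrays were all under background, so the rise of 2.04 (SE 0.12, adjusted p = 3.53e-07) is limited by it. Il17rd (probe set 10413398, chromosome 14), an IL-17 receptor relative that dampens FGF signalling, had 8.93, 9.16 and 8.83 in knock-out cells, against 7.36, 7.18 and 7.33 in wild-type cells. It rose by 1.68 (SE 0.091, adjusted p = 2.48e-07), and its second probe set differed by +1.42. Both probe sets separated the genotypes on every array. Il1rl2 (probe set 10345777, chromosome 1), the IL-36 receptor, had 6.24, 6.34 and 6.34 in knock-out cells, against 4.88, 4.96 and 5.03 in wild-type cells. It rose by 1.35 (SE 0.066, adjusted p = 1.08e-07) while its ligands Il1f6, Il1f8 and Il1f9 were below background in both genotypes.

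Several bright chains differed by less than 0.5 on the log2 scale. Il6st, or gp130, the signalling chain shared by the IL-6 family, had 11.90, 11.90 and 11.92 in knock-out cells, against 12.18, 12.18 and 12.28 in wild-type cells, and fell by 0.31 (SE 0.059, adjusted p = 0.00262). Il10rb, shared by the IL-10 family, had 10.17, 10.15 and 10.19 in knock-out cells, against 10.47, 10.45 and 10.51 in wild-type cells, and fell by 0.30 (SE 0.057, adjusted p = 0.00222). Both differences exceeded the spread within a genotype although they were small. Il13ra1, which forms the type II IL-4 receptor with Il4ra, had 11.15, 10.97 and 11.09 in knock-out cells, against 11.12, 11.14 and 11.25 in wild-type cells. Il4ra had 8.10, 7.89 and 8.05 in knock-out cells, against 8.07, 8.15 and 8.32 in wild-type cells. The ranges of both genes overlapped, and neither passed (−0.10 and −0.17, adjusted p = 0.357 and 0.176).

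The IL-17 receptor pair did not pass either. Il17ra had 8.18, 8.17 and 8.24 in knock-out cells, against 8.01, 8.12 and 8.20 in wild-type cells (+0.09, SE 0.067, adjusted p = 0.402). Il17rc had 9.45, 9.50 and 9.58 in knock-out cells, against 9.43, 9.50 and 9.66 in wild-type cells (−0.02, SE 0.075, adjusted p = 0.873). Il3ra, the IL-3 binding chain, had 7.78, 7.80 and 7.78 in knock-out cells, against 7.83, 7.67 and 7.82 in wild-type cells (+0.01, SE 0.064, adjusted p = 0.919). In all 3 genes the arrays overlapped. Il20rb did not pass (−0.07, adjusted p = 0.456). Its dimmest probe set, 10596027, was lower by 0.23 with arrays that did not overlap, and was not tested on its own. A pair of dim chains rose with adjusted p-values closer to the threshold, Il27ra (+0.31, SE 0.085, adjusted p = 0.0171) and Il15ra (+0.22, SE 0.074, adjusted p = 0.0495). Il27ra was not called without knock-out replicate 2 (adjusted p = 0.0696) or wild-type replicate 3 (0.0546). Il15ra was called in none of the leave-one-out fits except that without wild-type replicate 2, with adjusted p-values of 0.134, 0.131 and 0.0608 without knock-out replicates 1, 2 and 3 and 0.0763 and 0.158 without wild-type replicates 1 and 3.

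The largest difference in the group was that of an antagonist. Il1rn (probe set 10469816, chromosome 2) encodes the IL-1 receptor antagonist, which occupies the IL-1 receptor without signalling. The genes of that receptor, Il1r1, and of the IL-33 receptor, Il1rl1, were not among the 125 genes, so their levels are not known here. Il1rn had 10.58, 10.72 and 10.69 in knock-out cells, against 6.18, 6.38 and 6.40 in wild-type cells. The arrays of each genotype fell within 0.3 log2 units. Il1rn rose by 4.34 (SE 0.076, adjusted p = 6.13e-11), or 20.3-fold, and in the same cells Il1rap was lower and Il1a and Il1b were below background (4.58 and 4.69 in knock-out, 4.57 and 4.86 in wild-type cells). Il18bp (chromosome 7), which neutralizes IL-18, had 7.94, 7.69 and 7.81 in knock-out cells, against 7.59, 7.49 and 7.65 in wild-type cells. It rose by 0.24 (SE 0.078, adjusted p = 0.0431) while Il18 fell. That call was lost without knock-out replicate 1 or 3 (adjusted p = 0.155 and 0.0975), without wild-type replicate 1 or 2 (0.0826 and 0.145) and under quantile normalization (0.105).
RefSeq (GRCm38.p6) gives Il1rn more than a single transcript start, and the window of the most upstream one, chr2:24336610-24336909 on the plus strand, is shown because the gene has the largest change.
Il1rn: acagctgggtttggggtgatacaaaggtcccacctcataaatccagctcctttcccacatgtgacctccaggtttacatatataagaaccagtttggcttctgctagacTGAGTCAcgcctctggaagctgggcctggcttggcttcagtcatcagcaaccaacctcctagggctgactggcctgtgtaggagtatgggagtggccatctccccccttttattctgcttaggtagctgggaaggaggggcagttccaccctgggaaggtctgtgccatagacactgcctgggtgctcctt
Its capitals mark an AP-1 match that began 141 bases before the start, and the windows of the other 2 annotated starts held no match to any of the 3 motifs. The array signal does not tell which start was in use.

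Genes of the same pathways were counted from lists, beside a share of 31.6% called and a median of −0.012 over all genes. NF-κB factors and regulators were mostly lower in knock-out cells: of 14 measured, 10 fell, 1 rose and 3 did not pass, with a median log2 fold change of −0.50. Nfkb1 and Chuk, also on the list, were not measured. The 1 rise was that of the factor Rel, at 11.27 in knock-out and 10.99 in wild-type cells (+0.27, SE 0.063, limma adjusted p = 0.00773). The falls of at least 2-fold numbered 5. Ikbkg, the X-linked scaffold of the IκB kinase, averaged 7.24 ± 0.074 in knock-out and 8.91 ± 0.13 in wild-type cells (SD, n = 3 each, −1.67, SE 0.077, adjusted p = 7.34e-08). Nfkbie, an inhibitor that NF-κB itself induces, fell by 1.55 (SE 0.068), the co-activator Bcl3 by 1.21 (SE 0.11) and the ubiquitin editor Tnfaip3 by 1.07 (SE 0.069). The adjusted p of these 3 genes was 1.05e-05 or less, and their arrays did not overlap. Several of these regulators, Nfkbie and Tnfaip3 among them, are known as NF-κB target genes. Their part in the chemokine changes, which went in both directions, was not tested. The RNA levels do not measure the activity of the pathway.

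Of 25 genes of IL-1 and Toll-like receptor signalling 5 rose and 7 fell (median −0.00030). Irak3, a kinase-dead inhibitor of this pathway, averaged 9.61 ± 0.077 in knock-out and 8.10 ± 0.26 in wild-type cells and rose by 1.52 (SE 0.11, adjusted p = 3.51e-06). The receptors Tlr4 (+0.78) and Tlr6 (+0.68) rose and the adaptor Tab3 fell (−0.64), with adjusted p-values of 0.000154, 0.000157 and 1.11e-05. Irak3 and Il1rn, both inhibitors of IL-1 signalling, were higher in the same cells, while Nfkbie and Tnfaip3 were lower. Tollip (−0.04) and Sigirr (−0.11, below background in both genotypes) did not pass. Whether IL-1 signalling differed was not tested.

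Receptors of the IL-6 family outside the interleukin names rose while their ligands split. Of 8 measured genes 4 rose and 2 fell (median +0.25). Lifr, the LIF receptor that pairs with gp130, averaged 10.79 ± 0.10 in knock-out and 8.17 ± 0.12 in wild-type cells and rose by 2.62 (SE 0.081, adjusted p = 3.44e-09). Cntfr, the receptor of ciliary neurotrophic factor, rose by 1.20 (SE 0.10, adjusted p = 9.58e-06) and Osmr, the partner of Il31ra, by 0.68 (SE 0.13, adjusted p = 0.00207). The ligands Lif (−1.02, SE 0.059, adjusted p = 3.84e-07) and Clcf1 (−0.97, SE 0.079, adjusted p = 6.02e-06) fell, and Ctf1 rose (+0.41, adjusted p = 0.00461). Without moderation of the variances the adjusted p was 0.0721 for Osmr and 0.069 for Ctf1. Among the measured receptors that act with gp130, Il6ra was thus lower and Lifr, Cntfr and Osmr were higher. Il27ra, which also acts with gp130, was weakly higher (+0.31, limma adjusted p = 0.0171). The IL-11 receptor gene Il11ra1 was not among the 125 genes.

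Among 23 JAK, STAT and SOCS genes 7 rose and 8 fell (median −0.070). The feedback inhibitor Socs2 rose by 1.39 (SE 0.12) and Socs4 by 0.74 (SE 0.063), while Socs5 fell by 1.23 (SE 0.095) and the kinase Jak2 by 0.78 (SE 0.068), each with an adjusted p of 1.26e-05 or less. Of 16 colony stimulating and haematopoietic cytokine genes 1 rose and 3 fell (median −0.013). Csf1, the macrophage growth factor, averaged 9.78 ± 0.059 in knock-out and 10.83 ± 0.15 in wild-type cells and fell by 1.05 (SE 0.082, adjusted p = 4.50e-06). Kitl (−1.19) and the GM-CSF receptor chain Csf2ra (−0.97) fell too, and Flt3l rose (+0.67), with adjusted p-values of 1.72e-06, 0.000144 and 5.18e-05.

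**Figure D4:**
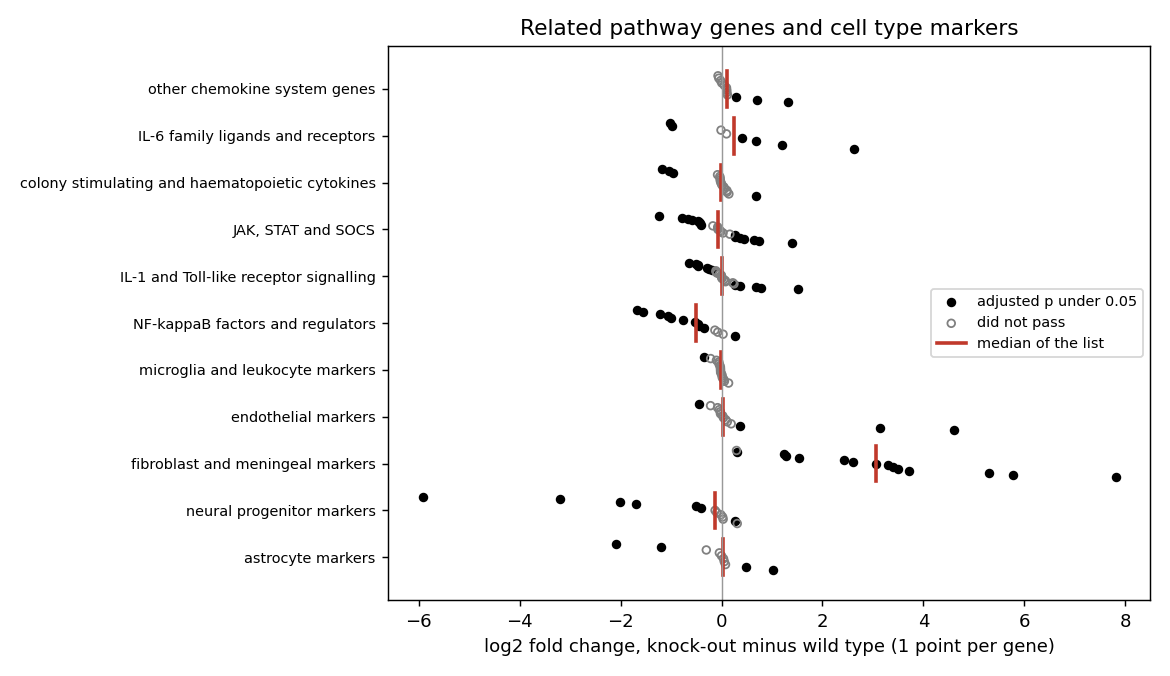
Log2 fold change (knock-out minus wild type, 1 point per gene) of related pathway genes and cell type markers; filled points had a limma adjusted p under 0.05, open points did not, and the red bar is the median of a list. The NF-κB list has its median at −0.50 and the fibroblast and meningeal list at +3.06, while the leukocyte markers sit close to 0.

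Markers of cells that could make these proteins were set beside the results. In bulk RNA, fewer cells of a type and less RNA per cell cannot be told apart. Microglia and leukocyte markers were mostly below background: 2 of 16 exceeded it in at least 1 genotype, 1 fell and 15 did not pass (median −0.020). The mean of the list ran from 4.99 to 5.03 on the knock-out arrays and from 5.03 to 5.07 on the wild-type arrays. The brightest marker, Cd68, lay above background in both genotypes, at 6.61 in knock-out and 6.83 in wild-type cells. It did not pass (−0.22, SE 0.083, adjusted p = 0.0785). Ptprc, the common leukocyte antigen, was at 4.79 in knock-out and 4.81 in wild-type cells, and Csf1r, which macrophages need, at 4.62 in knock-out and 4.64 in wild-type cells. The 1 call was Cd14 (−0.36, SE 0.095, adjusted p = 0.0156), which was not called without wild-type replicate 1 (adjusted p = 0.0533).

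Fibroblast and meningeal markers moved with the genotype, with 14 of 15 higher and none lower (median +3.06). The mean of that list ran from 9.78 to 9.83 on the knock-out arrays and from 6.75 to 6.77 on the wild-type arrays. Aspn (+7.81), Postn (+5.77), Col1a2 (+5.30) and Thy1 (+3.72), matrix and surface proteins of fibroblasts, had an adjusted p of 1.04e-09 or less. Some markers of the list were also bright in wild-type cells. These were Col1a1 (12.48 in knock-out and 11.25 in wild-type cells), Prrx1 (12.58 and 10.15) and Twist1 (8.56 and 8.25). Dcn did not pass (7.35 and 7.06, limma adjusted p = 0.362). The part of the fibroblast and meningeal markers in the rises of Cxcl12, Cxcl14 and Il33 was not tested. Neural progenitor markers had a list mean of 7.42 to 7.43 on knock-out and 8.43 to 8.49 on wild-type arrays, and a median of −0.13. They included falls of Fabp7 (−3.21), Nes (−2.01) and Pax6 (−1.69) beside Sox2 (−5.92). Hes1 rose (+0.26, limma adjusted p = 0.033). Vim (13.52 in knock-out and 13.53 in wild-type cells), Msi1, Hes5 and Sox3 were above background in both genotypes and did not pass. The part of these markers in the chemokine falls was not tested either.

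Endothelial markers gave 3 rises and 1 fall of 14 (median +0.030). The factor Erg (+4.60), the receptor Tek (+3.14) and Flt1 (+0.36) rose, while the defining Pecam1 and Cdh5 were below background (4.71 and 4.76 in knock-out, 4.73 and 4.81 in wild-type cells). Kdr fell by 0.44 (SE 0.12, adjusted p = 0.0174) under background, and its adjusted p was 0.0569 without knock-out replicate 1 and 0.0533 without knock-out replicate 3. Of 10 astrocyte markers 2 rose and 2 fell (median +0.019), with falls of Aqp4 (−2.10) and Fgfr3 (−1.19) and rises of Sparcl1 (+1.02) and Slc1a2 (+0.49). Gfap, the defining filament of astrocytes, was below background in both genotypes (4.57 in knock-out and 4.61 in wild-type cells). The list means ran from 5.65 to 5.68 on knock-out and 5.06 to 5.18 on wild-type arrays for endothelial markers, and from 5.85 to 5.89 on knock-out and 6.03 to 6.10 on wild-type arrays for astrocyte markers.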

How the data were processed

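The deposited table of log2 values holds 35556 probe sets on 6 arrays. Partek is named without a version per the submitters' processing notes; its settings for background, normalization and summarization were not given in the sources used here. Values were used as deposited. GEO's platform annotation gave 21789 probe sets 1 symbol, 1621 several and 12146 none. Where a gene had several, the probe set brightest over the 6 arrays was kept. Genotype and replicate came from the titles.

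All 19938 genes were fitted with limma 3.58.1 in R 4.3.3 (lmFit, eBayes without trend), with Benjamini-Hochberg adjustment over all genes. Each log2 fold change is the knock-out mean minus the wild-type mean, with the moderated SE. The fit was first tested on simulated data. The members, lists, motifs and background rule were chosen with earlier results of these data known. Every gene above background was named, with array values for those changed by 0.5 or more and the 10 brightest others, and up to 4 called genes per list. Deviations from genotype means correlated at 0.19 to 0.29 between same-number arrays and at −0.185 to −0.0047 otherwise. Centring on the genotype means ties these values to each other. The numbers may thus pair the samples, but the labels state no pairing. The main fit has no block, and a fit with one is given below. Gene order and sequences came from RefSeq (GRCm38.p6), since no build is stated for the array. The number of arrays limits the precision.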

Additional observations from a re-analysis of the deposited data

How the results depend on the processing

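Blocking on the replicate number called the same 32 chemokine and interleukin genes (35.1% of all genes, against 31.6%) and called Lgi1 (adjusted p = 0.0463, against 0.0747 without the block). It moved the calls from 12 to 13 in the IL-1 and Toll-like list (Myd88 higher), from 7 to 8 in the neural progenitor list (Msi1 higher) and from 4 to 5 in the astrocyte list (Gja1 lower). The 32 calls became 30 under quantile normalization, 31 with median centring, 29 without moderation and 28 at an adjusted p under 0.01. They ranged from 29 to 31 with 1 array left out, with 10 to 12 rises and 19 falls, and at least 2-fold changes from 16 to 17. Testing only genes above the median level left 17 calls, 6 higher and 11 lower, with 10 changed at least 2-fold (5 higher and 5 lower), since fewer genes were tested. At the 99th percentile of olfactory receptor genes 28 genes were above background in place of 44. Of 46 chemokine and interleukin genes chosen by the naming rule, 35 kept direction and call in each of the 16 alternatives that tested them, and that on genes above the median tested 24 of the 46. The other 11 were the weak calls Cx3cl1, Il15ra, Il18bp and Il27ra and 7 uncalled genes whose sign turned, for which the cause was not tested. Outside that rule Il20ra lost its call with median centring (adjusted p = 0.0529) and at 0.01, and under median centring Il1b and Il1f6 gained one (0.0209 and 0.0346), Il1b also with an intensity trend (0.0451). The log2 fold change turned to −0.0162 under quantile normalization and −0.0090 with median centring for Ccl19, to −0.0390 and −0.0297 for Cxcl13 and to −0.0279 and −0.0327 for Il3ra. With 1 array left out the log2 fold change ran from −0.0261 to 0.1067 for Ccl19, −0.0538 to 0.0816 for Cxcl13, −0.0374 to 0.0424 for Il3ra, −0.2209 to 0.0583 for Ccr10, −0.0539 to 0.0540 for Il27, −0.0726 to 0.0436 for Il17rc and −0.0624 to 0.0021 for Il17b. Signal over background limits every fold in which 1 genotype lies under 5.67.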
